A study of Homo sapiens with 24 samples.

Results

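The 10 genes described here are the core components of the circadian clock: CLOCK, ARNTL, PER1, PER2, PER3, CRY1, CRY2, NR1D1, NR1D2 and DBP. They were taken by name from the 13236 gene groups of the deposited tables, in which each gene is divided into bins (exon parts and introns). Of these 10 genes, 9 had a gene group of their own, and PER1 was found only in 1 group that joins it to RP11-599B13.6. The 10 genes hold 162 of the 164219 bins, and 1 of those 162 bins is a detained intron, that is, an intron that remains in otherwise spliced, polyadenylated RNA kept in the nucleus.

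The RNA came from HEK293T cells, a human line derived from embryonic kidney that carries the SV40 large T antigen. All cells were unmodified, were grown in 6-well plates and were given fresh medium 3 h before treatment. In the OSMI-2 experiment the cells received 10 µM OSMI-2, which blocks OGT, the enzyme that attaches O-GlcNAc to proteins, or its vehicle DMSO for 2 h or 6 h. In the TMG experiment they received 5 µM TMG (thiamet-G), which blocks OGA, the enzyme encoded by MGEA5 that removes it, or DMSO for the same times. Each group had 3 libraries of polyadenylated RNA except OSMI-2 at 6 h, of which 2 libraries were analysed here, so that 23 libraries entered the comparisons. Libraries are named by the letters a, b and c of their count columns, and the labels do not say whether they came from separate cultures, so p-values measure the spread between these libraries, which may be technical.

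In the clock mechanism, CLOCK and ARNTL (also called BMAL1) form a heterodimer that binds E-box sequences and activates the genes of the PER and CRY repressors, of the nuclear receptors NR1D1 and NR1D2 (REV-ERB alpha and beta) and of the transcription factor DBP. PER and CRY proteins return to the nucleus and inhibit the heterodimer. NR1D1 and NR1D2 repress ARNTL through response elements that ROR receptors also bind, and DBP activates genes through D-box sequences. O-GlcNAc is a sugar that OGT adds to nuclear and cytoplasmic proteins and OGA removes, and clock proteins are among its known substrates. In cultured cells the clocks of single cells drift apart, and a change of medium or serum is a common way of setting them in step.

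Promoter windows of 9 of the 10 clock genes held the letters of at least 1 such element, and 6 are shown because they belong to the genes whose levels the results below turn on. All 10 genes matched the RefSeq promoter windows of GRCh38.p14, ARNTL under its current symbol BMAL1, with 15 windows in all. Each window runs from 250 bases before to 50 bases after a transcription start. The letters searched on both strands were CACGTG (E-box), CACGTT (a variant E-box), TTANGTAA (D-box) and TAGGTCA (the element bound by NR1D1, NR1D2 and ROR proteins), and no hits of different elements overlapped in the windows of the clock genes. In the 250 bases before the start shown here, capitals mark those letters, and the D-box of PER2, which begins 3 bases before the start and runs past it, is shown only as far as the start. For ARNTL the element lies after the start and is shown with its flanks only.
PER1, chr17:8152405-8152654, minus strand: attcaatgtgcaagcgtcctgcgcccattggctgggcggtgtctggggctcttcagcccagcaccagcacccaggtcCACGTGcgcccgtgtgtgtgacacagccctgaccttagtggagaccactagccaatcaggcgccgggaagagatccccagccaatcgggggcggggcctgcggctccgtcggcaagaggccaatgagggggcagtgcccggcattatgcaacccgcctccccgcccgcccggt
PER2, chr2:238288611-238288860, minus strand: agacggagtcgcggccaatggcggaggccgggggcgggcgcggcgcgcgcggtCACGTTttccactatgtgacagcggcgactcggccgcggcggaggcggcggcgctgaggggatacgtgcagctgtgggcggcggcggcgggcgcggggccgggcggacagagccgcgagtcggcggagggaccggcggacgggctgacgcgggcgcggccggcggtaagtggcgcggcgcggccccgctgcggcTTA
CRY1, chr12:107093550-107093799, minus strand: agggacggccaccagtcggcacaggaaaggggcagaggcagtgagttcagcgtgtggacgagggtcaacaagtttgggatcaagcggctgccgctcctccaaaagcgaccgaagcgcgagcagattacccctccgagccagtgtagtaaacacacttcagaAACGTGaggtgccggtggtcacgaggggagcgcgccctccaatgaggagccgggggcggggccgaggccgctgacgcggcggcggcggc
NR1D1, chr17:40100590-40100839, minus strand: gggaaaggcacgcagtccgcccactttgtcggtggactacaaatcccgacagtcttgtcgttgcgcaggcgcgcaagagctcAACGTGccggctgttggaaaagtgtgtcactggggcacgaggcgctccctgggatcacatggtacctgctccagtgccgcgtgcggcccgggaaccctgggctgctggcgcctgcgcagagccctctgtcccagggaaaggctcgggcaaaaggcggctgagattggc
NR1D2, chr3:23945871-23946120, plus strand: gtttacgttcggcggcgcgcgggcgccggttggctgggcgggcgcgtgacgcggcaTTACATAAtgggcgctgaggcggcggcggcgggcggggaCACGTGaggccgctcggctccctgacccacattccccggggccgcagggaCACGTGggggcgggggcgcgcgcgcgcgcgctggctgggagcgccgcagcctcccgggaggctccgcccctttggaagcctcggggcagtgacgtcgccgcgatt
ARNTL, chr11:13277810-13277836, plus strand: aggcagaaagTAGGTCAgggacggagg
PER1 held 1 copy of CACGTG, which began 173 bases before its start, and 1 of the 2 NR1D2 windows held 2, which began 155 and 105 bases before its start. CACGTT was found in windows of 5 clock genes, namely PER2, CRY1, CRY2, CLOCK and NR1D1. TTANGTAA was found for PER2, PER3 and NR1D2, and TAGGTCA for ARNTL, where it began 30 bases after the start, and for CRY2. The window of DBP held none of these letters. Among all 35116 RefSeq windows, 7.26% held CACGTG, 5.34% CACGTT, 2.18% TTANGTAA and 1.85% TAGGTCA. Of the 15 windows of the clock genes, 2, 5, 3 and 2 held these letters, in that order. The count of 9 of the 10 genes is per gene and for any element, and has no such share beside it. A match says only that these letters are present in the window.

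Library depth and composition differed between the experiments. The tables summed to between 39465746 and 100161560 counts per library. The slope of log2 CPM (counts scaled to the size of each library) on the GC content of transcripts was between 0.24 and 0.92 per 10 percentage points of GC in the OSMI-2 experiment and between -0.66 and -0.38 in the TMG experiment. The median share of a gene's counts in its last exon was 23.9% to 31.5% in the first and 19.4% to 21.1% in the second. In GC slope, 1 library stood furthest from its group. DMSO 6 h library a of the OSMI-2 experiment had a GC slope of 0.24, against 0.84 and 0.91 in the other 2 libraries of its group. The comparisons of clock genes that include this library were also fitted without it. Of 8 genes typical of HEK293T cells, 5 were above 1 CPM in every library, PAX2, NEFL, INA and VIM among them, and the 8 together summed to between 333 and 1075 CPM. COL1A1, a collagen gene of fibroblasts, reached 24.5 CPM, and CDH1 and EPCAM of epithelium at most 1.34 CPM. At 6 h the targets of the drugs differed from DMSO of the same time. OGT was lower by 1.85 (SE 0.33, adjusted p = 0.000346) on the log2 scale with OSMI-2 and by 0.48 (SE 0.07, adjusted p = 0.00164) with TMG. MGEA5 was lower by 1.93 (SE 0.33, adjusted p = 0.000136) with OSMI-2 and higher by 0.72 (SE 0.06, adjusted p = 6.01e-06) with TMG. The controls moved too. Between 2 h and 6 h in DMSO, OGT rose by 1.81 (SE 0.29, edgeR adjusted p = 0.000109) in the OSMI-2 experiment. In DMSO of the TMG experiment it rose by 0.60 (SE 0.07, edgeR adjusted p = 4.77e-07). MGEA5 did not pass the test between the times in DMSO of either experiment.

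The measured levels of the clock genes differed widely. They are given per kilobase of summed bins, which adjusts for length but not for the GC slope of a library, so the order of genes may include that slope. PER1 had the highest level of the 10 in all 4 groups of the OSMI-2 experiment, with 15.9 CPM per kb in DMSO at 2 h. PER3 had the lowest in all 8 groups, with 0.22 CPM per kb in DMSO at 2 h of the OSMI-2 experiment. In DMSO at 2 h of the OSMI-2 experiment, PER1 was followed by DBP with 8.65, CRY2 with 7.17, CRY1 with 6.91, NR1D2 with 1.55, NR1D1 with 1.46, PER2 with 1.33, ARNTL with 1.28 and CLOCK with 0.31 CPM per kb. DBP, CRY2 and CRY1 did not differ beyond their spread, nor did the neighbours in the order from NR1D2 to ARNTL. In DMSO at 2 h of the TMG experiment the order was different: CRY1 led with 16.3 CPM per kb, ahead of NR1D2 with 12.3, PER1 with 6.53, CRY2 with 3.56, DBP with 3.37, CLOCK with 1.92, ARNTL with 1.42, PER2 with 1.27, NR1D1 with 0.45 and PER3 with 0.42. Of these neighbours CRY2 and DBP, ARNTL and PER2, and NR1D1 and PER3 did not differ beyond their spread.

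The same genes therefore had different levels in the DMSO libraries of the 2 experiments. NR1D2 was listed at 8.23, 8.0 and 8.17 CPM in DMSO at 2 h of the OSMI-2 experiment and at 59.8, 66.1 and 68.3 CPM in the TMG experiment, a ratio of means of 7.96. CLOCK, the DNA-binding partner of ARNTL, stood at 3.27 ± 0.76 CPM (SD, n = 3) in the first and 20.1 ± 1.33 CPM (SD, n = 3) in the second. CRY1 was also higher in the TMG experiment, with 36.6 ± 1.39 against 15.5 ± 0.49 CPM (SD, n = 3 each). PER1 went the other way, with 82.9 ± 17.7 CPM (SD, n = 3) in the OSMI-2 experiment and 34.1 ± 0.59 CPM (SD, n = 3) in the TMG experiment, and so did NR1D1, CRY2 and DBP. Libraries of the experiments overlapped for PER2 and ARNTL and not for the other clock genes. The share of all genes without overlap was not counted, so this separation cannot be read as particular to clock genes. The 4 genes that were lower in the TMG experiment have transcripts of 58.4% to 62.6% GC, and the 4 that were higher have transcripts of 38.8% to 45.9% GC, while the median over all genes is 50.3%. Because the experiments also differ in the GC slope of their libraries, biology and library composition cannot be told apart here, and the comparisons below stay within an experiment or compare changes.

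**Figure D1:**
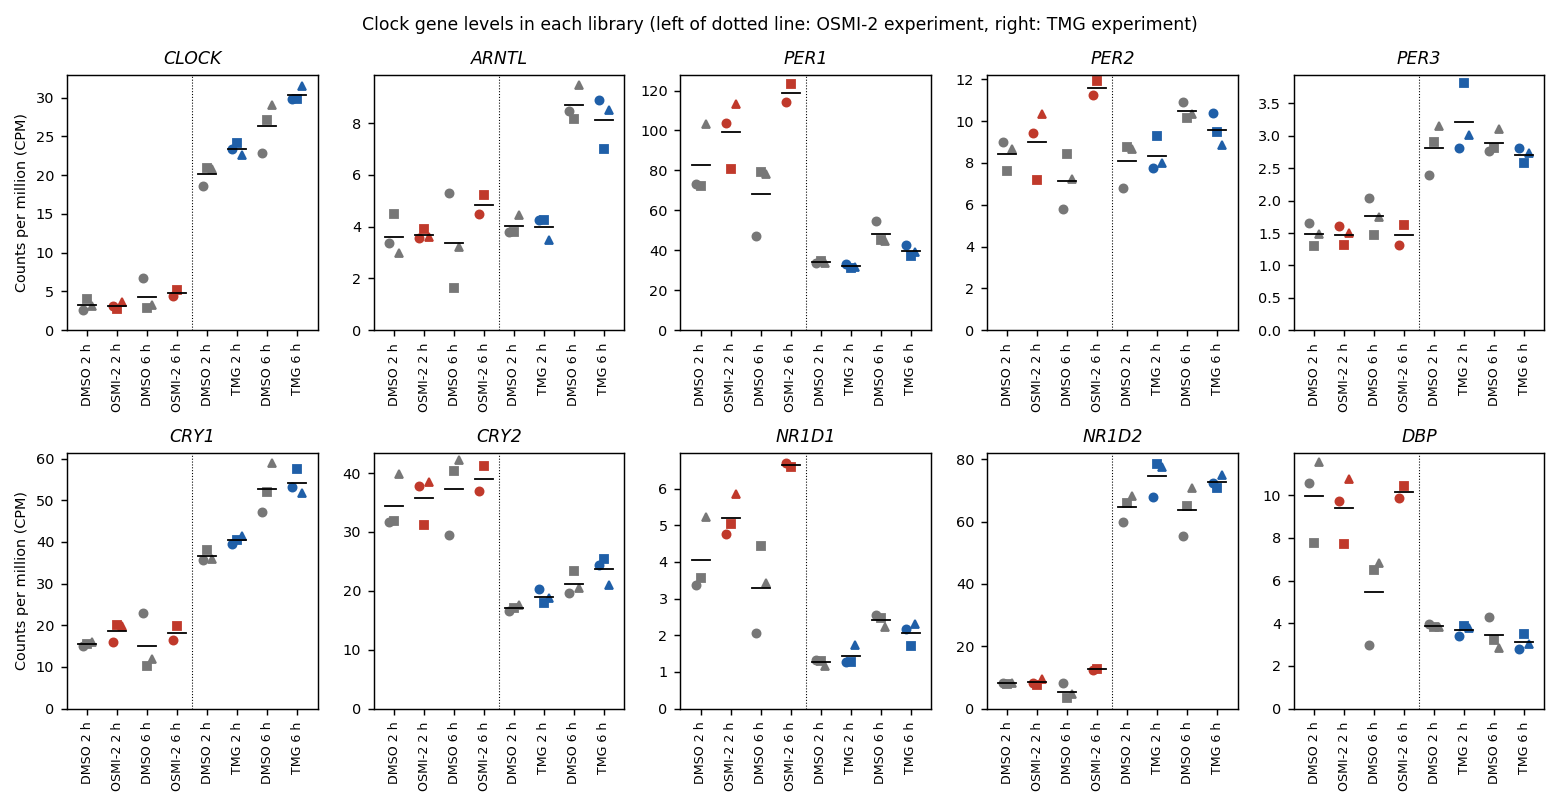
Level of each clock gene in CPM (linear axis from 0) in every library, grouped by treatment and time; circles, squares and triangles are libraries a, b and c, the bar is the group mean, and the dotted line separates the experiments. NR1D2 and CLOCK lie far higher in the TMG experiment and PER1 higher in the OSMI-2 experiment, and ARNTL is near 4 CPM at 2 h and above 8 CPM at 6 h in DMSO of the TMG experiment.

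**Figure D2:**
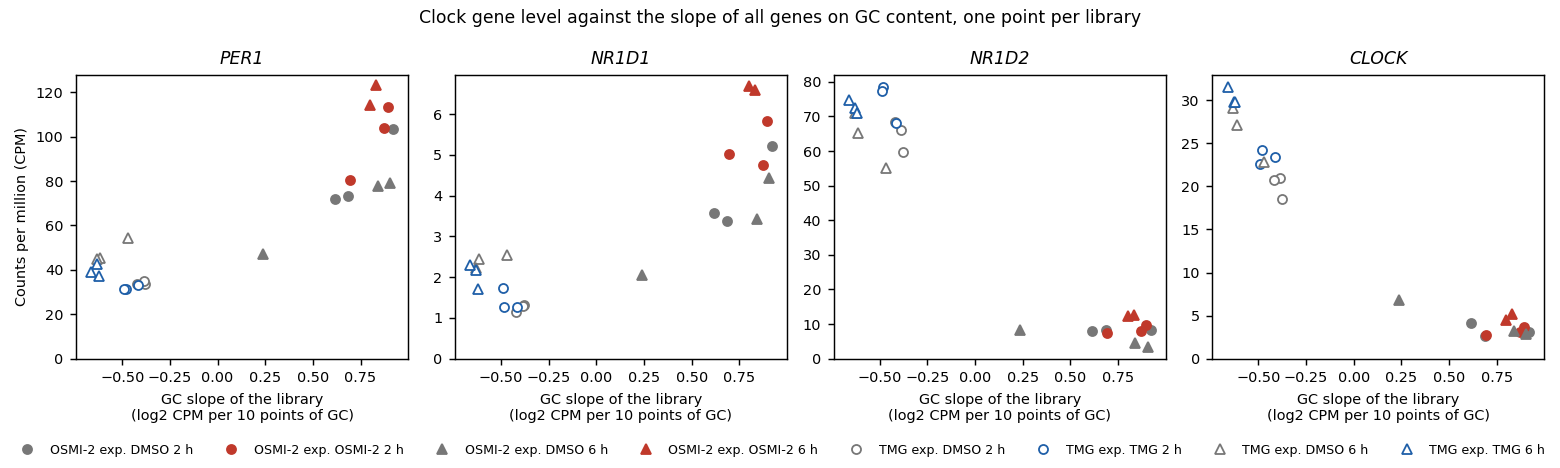
Level of PER1, NR1D1, NR1D2 and CLOCK in CPM (vertical axis) against the slope of all genes on GC content in the same library (horizontal axis), with 1 point per library, filled for the OSMI-2 experiment and open for the TMG experiment, circles for 2 h and triangles for 6 h. The experiments form separate clouds, and the single grey triangle between them is DMSO 6 h library a of the OSMI-2 experiment.

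The clearest change of clock genes lay between 2 h and 6 h in DMSO, in the TMG experiment, where 6 of the 10 genes were called higher and none lower. The activators ARNTL and CLOCK, the repressors PER1, PER2 and CRY1, and the nuclear receptor NR1D1 were higher at 6 h. Over all 12294 genes tested in this comparison 45.9% were called, 16.3% higher and 29.6% lower, the median log2 change being -0.07, against 0.27 over the clock genes. Scaled on genes alone, 23.7% were called higher and 23.7% lower, and CRY2 joined the 6 clock genes, as it did with DESeq2, which called 45.2% of genes. Other settings took calls away. Of 15 alternatives, the call held in 15 for ARNTL and NR1D1, 14 for PER1 and CRY1, 10 for CLOCK and 8 for PER2. The joint fit of all 23 libraries called ARNTL and NR1D1 only, and its share of all genes is given in the closing section. With the GC trend of each library removed, CLOCK was not called and NR1D2 was called lower. The share of all genes called with that trend removed is not given here. A call here means an adjusted p under 0.05 in edgeR's quasi-likelihood test. Fold changes are scaled over the libraries of their own comparison and CPM values over all 23 libraries, so a ratio of CPM values can differ from the fitted fold.

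ARNTL, on chromosome 11 from 13299326 to 13408816 (hg19), had the largest change of the 10. It was at 3.78, 3.79 and 4.47 CPM in DMSO at 2 h and at 8.47, 8.15 and 9.49 CPM at 6 h. Every 6 h library was above every 2 h library. The fitted log2 fold change was 1.01 (SE 0.11, adjusted p = 1.99e-07), or 2.01-fold. The rise ran along the gene: 21 of its 22 bins had a higher mean at 6 h. In 18 bins every 6 h library was above every 2 h library. Here and below, the bins of a gene come from the same libraries and are not independent. The share of all bins without overlap was not counted. The rise of ARNTL was called under each of 15 alternative settings, with log2 fold changes from 0.96 to 1.12.

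**Figure D3:**
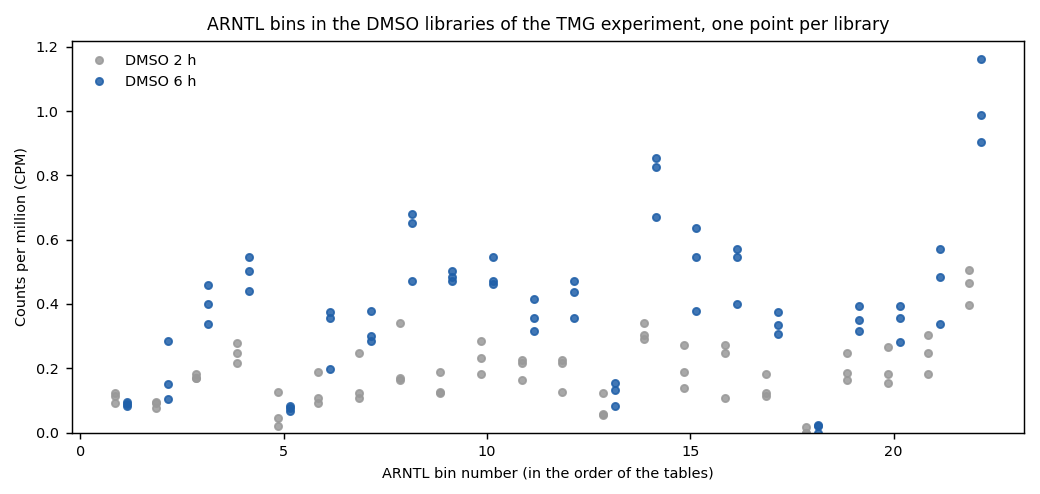
Level in CPM of each of the 22 ARNTL bins (horizontal axis, in the order of the deposited tables) in the DMSO libraries of the TMG experiment, with 3 grey points for the 2 h libraries and 3 blue points for the 6 h libraries. The blue points lie above the grey ones in 18 bins, spread over the whole gene.

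NR1D1, the repressor of ARNTL, rose as well, from 1.32, 1.31 and 1.15 CPM at 2 h to 2.54, 2.46 and 2.23 CPM at 6 h, a log2 fold change of 0.82 (SE 0.17, adjusted p = 0.000401). All 8 of its bins had a higher mean at 6 h and in 6 of them the libraries did not overlap. Its paralogue NR1D2 did not pass the test, with 59.8, 66.1 and 68.3 CPM at 2 h and 55.2, 65.2 and 70.9 CPM at 6 h (log2 fold change -0.14, SE 0.08, adjusted p = 0.153), although with the GC trend of each library removed it was called lower, by -0.31 (adjusted p = 4.1e-05).

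Among the repressors, CRY1 went from 35.6, 38.2 and 36.0 CPM at 2 h to 47.2, 52.1 and 59.0 CPM at 6 h. Its log2 fold change was 0.41 (SE 0.08, adjusted p = 0.000143), and 0.18 (adjusted p = 0.0184) with the GC trend removed. PER1 went from 33.8, 34.8 and 33.8 CPM to 54.6, 45.1 and 44.7 CPM. In both genes the groups did not overlap, and for PER1 all 26 bins had a higher mean at 6 h. The log2 fold change of PER1 was 0.39 (SE 0.09, adjusted p = 0.00105). PER2 rose less, from 6.79, 8.78 and 8.65 CPM to 10.9, 10.2 and 10.4 CPM, with a log2 fold change of 0.27 (SE 0.11, adjusted p = 0.0449). The call of PER2 was lost in 5 of the 6 fits that left out 1 library, where its adjusted p lay between 0.0541 and 0.262. CRY2 did not overlap between the times either (16.5 to 17.6 CPM at 2 h, 19.7 to 23.4 CPM at 6 h) but missed the threshold, with a log2 fold change of 0.20 (SE 0.09, adjusted p = 0.0615). PER3, at 2.39 to 3.16 CPM at 2 h and 2.77 to 3.11 CPM at 6 h, had a log2 fold change of -0.07 (SE 0.15, adjusted p = 0.709).

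CLOCK had 18.6, 21.0 and 20.8 CPM at 2 h and 22.8, 27.1 and 29.1 CPM at 6 h in DMSO, a log2 fold change of 0.27 (SE 0.09, adjusted p = 0.0114). The composition of the libraries moved alongside. DMSO 6 h libraries had steeper negative GC slopes (-0.63 to -0.47) than DMSO 2 h libraries (-0.42 to -0.38), the CLOCK transcript has 38.8% GC, and with the GC trend removed the log2 fold change was 0.03 (adjusted p = 0.721). The call was also lost without DMSO 2 h library a or DMSO 6 h library c (adjusted p = 0.0656 and 0.07). DBP, whose protein acts on D-boxes, was at 3.98, 3.84 and 3.8 CPM at 2 h and at 4.31, 3.19 and 2.83 CPM at 6 h, with a log2 fold change of -0.27 (SE 0.15, adjusted p = 0.156). Without DMSO 6 h library a it was called lower by -0.51 (adjusted p = 0.00201), in a fit whose share of all genes called is not given here.

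The TMG-treated libraries of the same experiment give the levels of both times in other samples, a comparison of levels added after the values had been seen. ARNTL was at 4.26, 4.26 and 3.47 CPM with TMG at 2 h and at 8.91, 7.0 and 8.5 CPM at 6 h. The libraries of both times did not overlap for ARNTL, CLOCK, CRY1, CRY2 and PER1, which were higher at 6 h, nor for PER3, which was lower. Among all genes, 35.9% were higher without overlap and 27.2% lower. In DMSO of the same experiment 7 of the 10 clock genes were higher at 6 h without overlap, against 30.5% of all genes. In the OSMI-2-treated libraries ARNTL was at 3.56, 3.90 and 3.61 CPM at 2 h and at 4.48 and 5.21 CPM at 6 h, and 6 clock genes (ARNTL, CLOCK, NR1D1, NR1D2, PER1 and PER2) were higher at 6 h without overlap, against 23.8% of all genes.

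In DMSO of the OSMI-2 experiment, none of the 10 clock genes passed the test between 2 h and 6 h, while 18.5% of 12343 genes did, 4.59% higher and 14% lower. DBP was the 1 clock gene with an unadjusted p under 0.05, a level for which the share of all genes is not given here. DESeq2 called 0 clock genes, with 14.5% of all genes called. DBP was at 10.6, 7.74 and 11.5 CPM at 2 h and at 2.98, 6.51 and 6.83 CPM at 6 h, without overlap (32.1% of all genes were lower without overlap), with a log2 fold change of -0.81 (SE 0.31, adjusted p = 0.0624). It was called without DMSO 6 h library b, in a fit whose share of all genes called is not given here. It was at -0.50 (SE 0.19, adjusted p = 0.0519) without library a. NR1D2 was at 8.23, 8.0 and 8.17 CPM at 2 h and at 8.19, 3.45 and 4.52 CPM at 6 h, the first of the 6 h values being that of library a. Without that library NR1D2 was called lower by -0.96 (SE 0.19, adjusted p = 0.00237), in a fit in which 37.2% of all genes were called. ARNTL showed no shift of its group mean, at 3.62 ± 0.79 CPM at 2 h and 3.38 ± 1.85 CPM at 6 h (SD, n = 3 each), but library a held 5.31 CPM against 1.61 and 3.23 CPM in the other 2. Its log2 fold change was -0.07 (SE 0.34, adjusted p = 0.912) with library a and -0.53 (SE 0.29, adjusted p = 0.165) without it. PER1 stood at 73.3, 72.1 and 103 CPM at 2 h and at 47.0, 79.2 and 78.0 CPM at 6 h, so that library a was the lowest and the others lay within the 2 h range. Its log2 fold change was -0.23 (SE 0.26, adjusted p = 0.56) with library a and 0.00 (SE 0.17, adjusted p = 0.987) without it. The remaining 6 did not pass with all libraries: PER2 was at -0.19 (SE 0.29), PER3 at 0.29 (SE 0.32), CRY1 at 0.00 (SE 0.29), CRY2 at 0.17 (SE 0.25), CLOCK at 0.43 (SE 0.33) and NR1D1 at -0.23 (SE 0.32), and NR1D2 was at -0.55 (SE 0.31, adjusted p = 0.207). The median log2 change over all genes moved from -0.25 to 0.04 when scaled on genes alone. In that fit 6.78% of genes were called higher and 2.37% lower, and no clock gene was called. Median-of-ratios scaling, the joint fit of all 23 libraries and removal of the GC trend did call clock genes. Their counts, with the shares of all genes, are given in the closing section.

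Whether the clock genes changed differently between the times in DMSO of the 2 experiments was then tested as a difference of changes, a comparison added after the values had been seen. NR1D1 alone was called, with a change larger by 1.23 (SE 0.36, adjusted p = 0.0344) in the TMG experiment, where 13.2% of 12577 genes were called and the median over all genes was 0.29. The call held in 12 of 21 alternatives, and was lost without DMSO 2 h library a or c of the OSMI-2 experiment or any 1 of the 6 DMSO libraries of the TMG experiment (adjusted p 0.0526 to 0.0879). Without DMSO 6 h library a of the OSMI-2 experiment 8 clock genes were called, all but PER3 and CRY2, when 56.4% of all genes were called and the median was 0.55. The difference for ARNTL was 1.21 (SE 0.41, adjusted p = 0.0595) with the library and 1.96 (SE 0.31, adjusted p = 8.81e-05) without it, and that for NR1D1 was 1.22 (SE 0.27, adjusted p = 0.00118) without it.

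OSMI-2 for 2 h gave no call among the clock genes, nor among any of the 12343 genes tested (0%). At an unadjusted p under 0.05 there were 160 genes and none of the clock genes, and DESeq2 called 1 gene (0.0076%), which was none of the 10. The largest log2 fold changes were those of NR1D1, 0.30 (SE 0.17), CRY1, 0.19 (SE 0.16), and PER1, 0.18 (SE 0.14), each with an adjusted p of 1.0 after rounding. PER1 was at 73.3, 72.1 and 103 CPM in DMSO and at 104, 80.5 and 113 CPM with OSMI-2. The libraries of both groups fell into sets by GC slope: PER1 was at 103 to 113 CPM in the 3 libraries with slopes above 0.75 (DMSO c, OSMI-2 a and c) and at 72.1 to 80.5 CPM in the 3 below (DMSO a and b, OSMI-2 b). CRY2 was likewise at 37.7 to 39.8 CPM in the first set and at 31.2 to 31.8 CPM in the second. For the other 8 clock genes the sets overlapped, among them DBP and NR1D1, whose transcripts have 61.5% and 59.5% GC. The share of all genes separated by these sets was not counted, and the part of GC content in these levels was not tested. The log2 fold changes of the remaining clock genes were -0.00 (SE 0.16) for PER2, -0.10 (SE 0.21) for PER3, -0.02 (SE 0.13) for CRY2, -0.14 (SE 0.22) for CLOCK, -0.06 (SE 0.23) for ARNTL, -0.05 (SE 0.15) for NR1D2 and -0.16 (SE 0.17) for DBP. Only CRY1 was higher with OSMI-2 without overlap between the treatments, as 2.81% of all genes were.

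With OSMI-2 for 6 h, none of the clock genes passed the test over all libraries, and the count of calls changed without 1 control library and with the scaling or the fit. Over 12484 genes 4.94% were called, 2.57% higher and 2.37% lower, the median log2 change being 0.15. Scaled on genes alone the median was -0.09, with 0.265% called higher and 3.86% lower, and with median-of-ratios scaling 0.30, with 5.68% higher and 1.87% lower. At an unadjusted p under 0.05 there were 3 clock genes, PER1, NR1D1 and NR1D2, all higher. The share of all genes at that unadjusted level is not given here, so these 3 cannot be read as particular to clock genes. DESeq2 called 0 clock genes, with 5.65% of all genes called. Without DMSO 6 h library a, 7 of the 10 were called and all were higher: PER1, CRY1, CLOCK, ARNTL, NR1D1, NR1D2 and DBP. In that fit 42.4% of 12435 genes were called, 34.2% higher and 8.21% lower. With the GC trend of every library removed and library a kept, 4 clock genes were called higher (PER1, NR1D1, NR1D2 and DBP), against 20.2% of all genes. In the fit of all 23 libraries PER2 joined these 4, against 39.5% of all genes.

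NR1D2, on chromosome 3 from 23986752 to 24022112 (hg19), was the clock gene furthest from its controls at 6 h of OSMI-2. It was at 12.4 and 12.7 CPM with OSMI-2 and at 8.19, 3.45 and 4.52 CPM in DMSO. Both treated libraries were above all controls. The log2 fold change was 1.02 (SE 0.36, adjusted p = 0.072), and 1.51 (SE 0.16, adjusted p = 0.00205) without DMSO 6 h library a. With median-of-ratios scaling it was called with all libraries, when 7.56% of all genes were. All 8 NR1D2 bins had a higher mean with OSMI-2, and in 6 of them the libraries did not overlap. NR1D1 was at 6.70 and 6.60 CPM with OSMI-2 and at 2.05, 4.43 and 3.42 CPM in DMSO, with a log2 fold change of 0.81 (SE 0.37, adjusted p = 0.163), and 0.61 (SE 0.18, adjusted p = 0.0338) without library a.

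PER1, on chromosome 17 from 8043788 to 8059678 (hg19), was at 114 and 123 CPM with OSMI-2 for 6 h and at 47.0, 79.2 and 78.0 CPM in DMSO. In 25 of its 26 bins both OSMI-2 libraries were above every control. Its log2 fold change was 0.61 (SE 0.30, adjusted p = 0.202), and 0.45 (SE 0.11, adjusted p = 0.0154) without library a. PER2 was at 11.3 and 11.9 CPM against 5.78, 8.44 and 7.25 CPM, with a log2 fold change of 0.50 (SE 0.35, adjusted p = 0.402), and 0.41 (SE 0.15, adjusted p = 0.0568) without library a. DBP was at 9.87 and 10.4 CPM against 2.98, 6.51 and 6.83 CPM, with a log2 fold change of 0.70 (SE 0.36, adjusted p = 0.225), and 0.46 (SE 0.13, adjusted p = 0.0269) without library a. In these 5 genes the OSMI-2 libraries lay above all 3 controls, as they did for 44.4% of all genes.

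In the other 5 genes the groups overlapped at 6 h of OSMI-2. CRY1 was at 16.5 and 19.8 CPM with OSMI-2 and at 22.97, 10.2 and 11.97 CPM in DMSO, library a being above and the other controls below the treated libraries. Its log2 fold change was 0.07 (SE 0.34, adjusted p = 0.931) with library a and 0.56 (SE 0.14, adjusted p = 0.0163) without it. ARNTL was at 4.48 and 5.21 CPM against 5.31, 1.61 and 3.23 CPM and showed the same split, with 0.32 (SE 0.38, adjusted p = 0.642) and 0.87 (SE 0.29, adjusted p = 0.0457). CLOCK changed sign with that library, from -0.03 (SE 0.37, adjusted p = 0.973) to 0.52 (SE 0.16, adjusted p = 0.0337). CRY2, at -0.13 (SE 0.31, adjusted p = 0.836), and PER3, at -0.45 (SE 0.39, adjusted p = 0.507), were not called with or without library a.

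**Figure D4:**
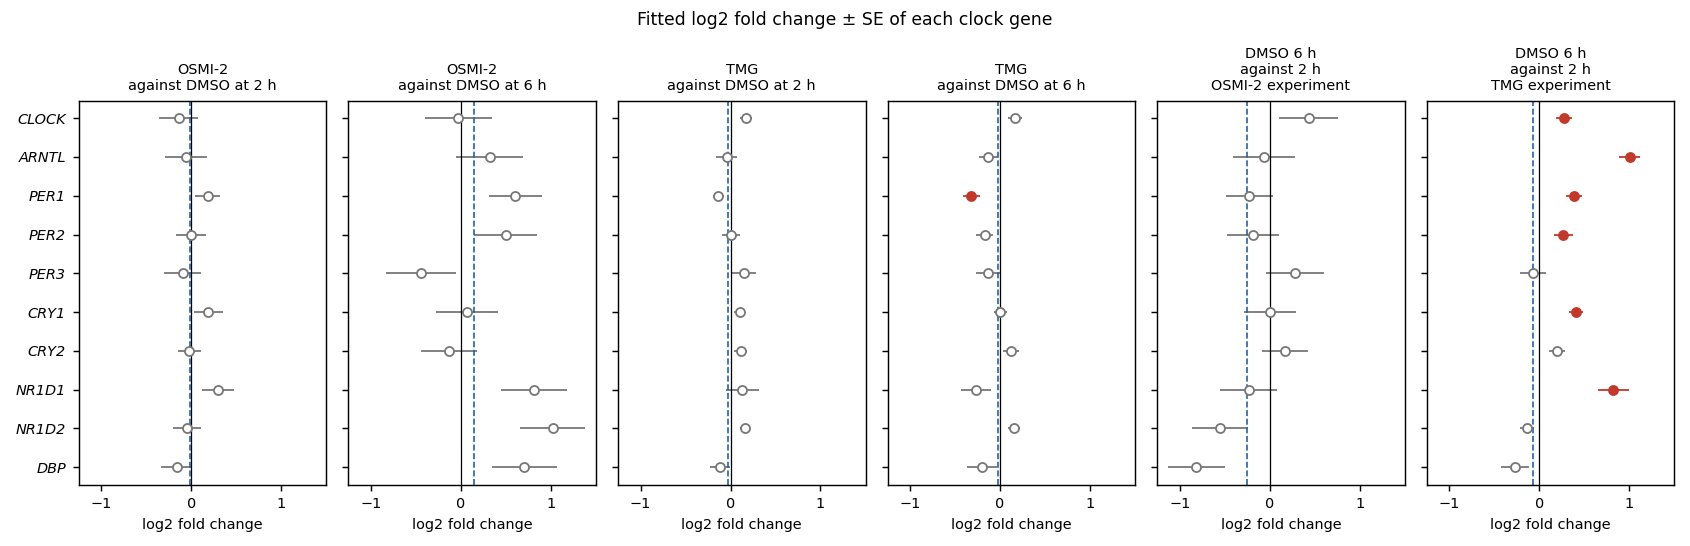
Fitted log2 fold change of each clock gene (point) with its standard error (bar) in the 6 comparisons within an experiment; filled red points passed an adjusted p under 0.05, the solid line is 0 and the dashed line is the median of all genes tested. In DMSO at 6 h against 2 h of the TMG experiment 6 genes are called, in TMG at 6 h only PER1, and in the other 4 panels none.

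TMG for 2 h moved no clock gene past the threshold, against 7.91% of 12361 genes. At an unadjusted p under 0.05 there were 3 clock genes, PER1, CLOCK and NR1D2. How many of all genes lay below that unadjusted level is not given here, so the count is a description only. DESeq2 called CLOCK and NR1D2, with 9.87% of all genes called. NR1D2 was at 68.0, 78.4 and 77.4 CPM with TMG and at 59.8, 66.1 and 68.3 CPM in DMSO. Its log2 fold change was 0.16 (SE 0.06, adjusted p = 0.0794), and it was called without TMG 2 h library a, as 7.57% of all genes were, and when scaled on genes alone, as 6.21% were. CLOCK was at 23.4, 24.2 and 22.6 CPM against 18.6, 21.0 and 20.8 CPM, with a log2 fold change of 0.18 (SE 0.07, adjusted p = 0.101). PER1 was at 33.1, 31.3 and 31.6 CPM against 33.8, 34.8 and 33.8 CPM, all 3 TMG libraries being below the controls, with a log2 fold change of -0.13 (SE 0.06, adjusted p = 0.171). The other 7 were at 0.01 (SE 0.10) for PER2, 0.15 (SE 0.14) for PER3, 0.10 (SE 0.06) for CRY1, 0.11 (SE 0.07) for CRY2, -0.04 (SE 0.12) for ARNTL, 0.13 (SE 0.18) for NR1D1 and -0.12 (SE 0.11) for DBP, with adjusted p from 0.291 to 0.982. CRY1, CRY2 and CLOCK were above their controls without overlap, as 11.9% of all genes were, and PER1 was below, as 13% were.

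TMG for 6 h lowered 1 clock gene, PER1, when 6.03% of 12103 genes were called, 1.19% higher and 4.84% lower. PER1 was at 42.8, 37.3 and 39.1 CPM with TMG and at 54.6, 45.1 and 44.7 CPM in DMSO, and every TMG library was below every control, as for 13.8% of all genes. The log2 fold change was -0.32 (SE 0.09, adjusted p = 0.0483), close to the threshold. The call was lost in each of the 6 fits that left out 1 library, with adjusted p between 0.0536 and 0.214. Without DMSO 6 h library a, whose PER1 level was the highest, the log2 fold change was -0.18 (adjusted p = 0.067). Over all 15 alternatives the call held in 6 and the direction in all 15. CLOCK, at 29.8, 29.8 and 31.5 CPM against 22.8, 27.1 and 29.1 CPM, had a log2 fold change of 0.17 (SE 0.08, adjusted p = 0.204), and NR1D2, at 72.4, 70.9 and 74.8 CPM against 55.2, 65.2 and 70.9 CPM, one of 0.15 (SE 0.07, adjusted p = 0.204). Both were above their controls without overlap, as 12.6% of all genes were. The other 7 did not pass the threshold: ARNTL was at -0.13 (SE 0.11), NR1D1 at -0.27 (SE 0.16), PER2 at -0.17 (SE 0.10), PER3 at -0.13 (SE 0.14), CRY1 at 0.00 (SE 0.07), CRY2 at 0.12 (SE 0.09) and DBP at -0.20 (SE 0.17).

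Whether a drug's effect differed between 2 h and 6 h was tested as an interaction. No clock gene was called for OSMI-2 (0.111% of 12627 genes were) or for TMG (0.0242% of 12399 genes). At an unadjusted p under 0.05 there was 1 clock gene for OSMI-2, NR1D2, and none for TMG. The shares of all genes at that unadjusted level are not given here. DESeq2 called no clock gene in either. For NR1D2 the effect of OSMI-2 was larger at 6 h by 1.02 (SE 0.38, adjusted p = 0.241), and it was called without DMSO 6 h library a of the OSMI-2 experiment, as 12.8% of all genes were.

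The effects of both drugs were then compared at the same time after treatment, each against the DMSO libraries of its own experiment. The doses were 10 µM OSMI-2 and 5 µM TMG and the inhibitors act on opposing enzymes, so this contrast is between experiments as well as between drugs. At 2 h no clock gene was called, nor was any of 12608 genes (0%). At an unadjusted p under 0.05 there were 1025 genes and 1 clock gene, PER1, and DESeq2 called 1 gene (0.00759%), none of the 10. At 6 h the OSMI-2 effect exceeded the TMG effect for 3 clock genes, when 19.9% of 12563 genes were called, 16.9% higher and 2.97% lower. They were PER1 with a difference of 1.08 (SE 0.29, adjusted p = 0.0217), PER2 with 0.83 (SE 0.25, adjusted p = 0.0321) and NR1D1 with 1.23 (SE 0.35, adjusted p = 0.027). NR1D2 with 1.03 (SE 0.36, adjusted p = 0.0524) and DBP with 1.05 (SE 0.39, adjusted p = 0.0651) missed the threshold. Of 20 alternatives, the difference stayed past the threshold in 14 for PER1, 11 for PER2 and 11 for NR1D1, and its direction was the same in all 20. The call of PER1 was lost without either OSMI-2 library, DMSO 6 h library a of the TMG experiment or TMG 6 h library b or c (adjusted p 0.0555 to 0.108), and those of PER2 and NR1D1 were lost without any 1 of the OSMI-2 or TMG experiment 6 h libraries other than the DMSO libraries of the OSMI-2 experiment. The median over all genes was 0.36 in this contrast, and each difference includes that shift. The median was 0.72 with median-of-ratios scaling, where 5 clock genes and 41.9% of all genes were called higher, and 0.09 on genes alone, where no clock gene was called. Without DMSO 6 h library a of the OSMI-2 experiment 8 clock genes and 73% of all genes were called higher, with a median of 0.88. In that fit the difference was 1.33 (SE 0.17, adjusted p = 2.84e-06) for PER1, 1.15 (SE 0.17, adjusted p = 1.43e-05) for PER2 and 1.44 (SE 0.23, adjusted p = 3.34e-05) for NR1D1.

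CRY2 carries the only detained intron among the clock genes, a bin of 430 bases on the plus strand of chromosome 11 from 45882584 to 45883013 (hg19). The intron held few counts: 5, 14 and 9 in DMSO at 2 h of the OSMI-2 experiment, 14, 12 and 7 with OSMI-2 at 2 h, 22, 41 and 19 in DMSO at 6 h, and 5 and 5 with OSMI-2 at 6 h. As a share of CRY2 counts it was 1.21% ± 0.42 (SD, n = 3) in DMSO at 6 h and 0.289% and 0.169% in the OSMI-2 libraries. Both treated libraries were below every control. The intron fell by 2.57 on the log2 scale (SE 0.55, adjusted p = 9.58e-06), and relative to CRY2 by 2.18 (SE 0.43, limma adjusted p = 1.16e-06), when 86.3% and 89.2% of detained introns were called lower by these tests. In the authors' deposited table its usage had a log2 change of -2.47 and an adjusted p of 0.000416. Of 145 clock gene bins with an adjusted p in that table it was the only one called, against 6.46% of all bins.

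That fall, which is against DMSO at 6 h, was shared by the class. Detained introns held 0.76% to 1.21% of all counts in DMSO at 6 h and 0.29% to 0.33% with OSMI-2 at 6 h. In DMSO at 2 h of the same experiment they held 0.24% to 0.28%, so the treated libraries lay near the 2 h level. At 6 h of OSMI-2, 4035 of 4677 detained introns tested were called lower and 28 higher by edgeR, the median log2 change being -1.55, and the authors' deposited table called 80.5% of 4739. Scaled on introns alone, so that the common fall was removed, the change in CRY2 was -1.11 (SE 0.53, adjusted p = 0.14), and DESeq2 gave -1.06 (adjusted p = 0.35). The fall relative to CRY2 was called in all 6 alternatives run for it. Without DMSO 6 h library a the change relative to CRY2 was -2.14 (SE 0.50), and the share in that library, 1.22%, lay between the 1.62% and 0.774% of the other controls.

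Between the times in DMSO the intron was called higher in both experiments, and relative to CRY2 in neither. In the TMG experiment it had 9, 6 and 5 counts at 2 h and 16, 13 and 17 at 6 h, a share of 0.69% ± 0.26 and 1.51% ± 0.33 of CRY2 counts (SD, n = 3 each), and a log2 fold change of 1.31 (SE 0.42, adjusted p = 0.0181). Relative to CRY2 the change was 1.04 (SE 0.42, limma adjusted p = 0.059). The median over all introns was 0.41, with 860 of 4095 called higher (21%). The call of the CRY2 intron was lost without DMSO 2 h library b or c or DMSO 6 h library c (adjusted p 0.0864 to 0.0997), scaled on introns alone (0.91, adjusted p = 0.145) and by DESeq2 (0.92, adjusted p = 0.518). In the OSMI-2 experiment the log2 fold change between the times was 0.95 (SE 0.43, adjusted p = 0.0361), below the median of 1.70 over all introns, of which 88.5% were called higher. Scaled on introns alone it turned to -0.69 (adjusted p = 0.206), and its call was lost without DMSO 2 h library a or c or DMSO 6 h library b. Relative to CRY2 the change was 0.74 (SE 0.40, limma adjusted p = 0.0813). TMG at 6 h gave 17, 16 and 15 counts and a log2 fold change of 0.11 (SE 0.34, adjusted p = 0.953). With OSMI-2 at 2 h the log2 fold change was -0.46 (SE 0.45, adjusted p = 1.0 after rounding), and for TMG at 2 h, with 5 to 9 counts in each library, the intron did not pass the filter on low counts.

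**Figure D5:**
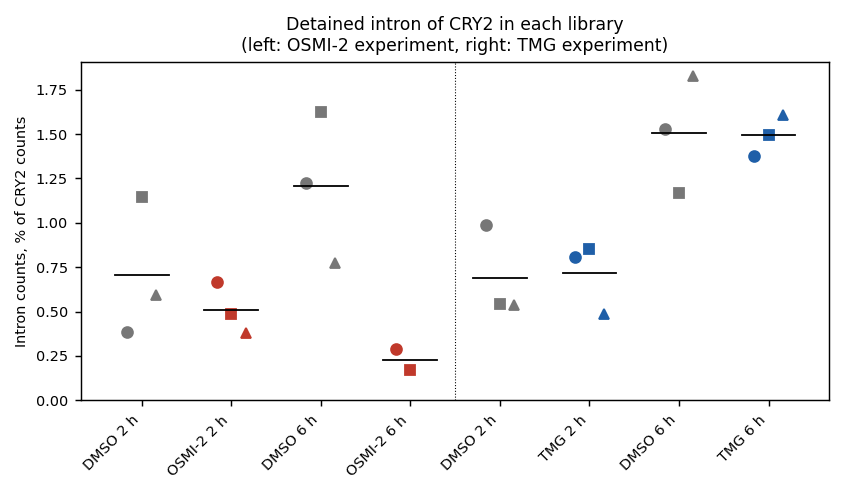
Counts of the detained intron of CRY2 as a percentage of the CRY2 counts in each library (linear axis from 0); circles, squares and triangles are libraries a, b and c and the bar is the group mean. The 2 OSMI-2 libraries at 6 h are below 0.3% and the DMSO libraries at 6 h between 0.774% and 1.82%.

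A wider list of 31 clock-related genes, drawn up with earlier results of these data known, had 27 genes in the tables. The other 4 were not used here, CIART is listed as C1orf51, and CSNK2B and GSK3A stand in merged groups. Between 2 h and 6 h in DMSO of the TMG experiment, edgeR called 5 of 26 higher (19.2%) and 9 lower (34.6%), near the 16.3% and 29.6% of all genes, and the list's median log2 change of -0.07 was that of all genes too. Of the further activators, NPAS2, which can replace CLOCK, fell by 0.38 (SE 0.13, adjusted p = 0.0213), and ARNTL2, the paralogue of ARNTL, rose by 0.25 (SE 0.09, adjusted p = 0.0279). The E-box repressors BHLHE40 and BHLHE41 rose by 0.36 (SE 0.15, adjusted p = 0.0456) and 0.63 (SE 0.17, adjusted p = 0.00333). RORA, the activator that competes with NR1D1 and NR1D2, rose from 3.10 ± 0.43 to 4.67 ± 0.82 CPM (SD, n = 3 each), a log2 fold change of 0.47 (SE 0.14, adjusted p = 0.00845).

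Other members of that list fell between the times in the same libraries. TEF, which acts on D-boxes as DBP does, fell by 0.39 (SE 0.11, adjusted p = 0.00532), and NFIL3, its antagonist, was at 0.26 and 0.27 CPM and had a log2 fold change of -0.05 (SE 0.37, adjusted p = 0.917). KLF10, a transcription factor linked to the clock, fell by 1.0 (SE 0.11, adjusted p = 1.53e-07), from 8.35 ± 0.53 to 4.51 ± 0.19 CPM (SD, n = 3 each). Of the kinases, CSNK1E, which phosphorylates PER proteins, fell by 0.23 (SE 0.07, adjusted p = 0.0124), CSNK2B and GSK3A also fell, and GSK3B rose by 0.54 (SE 0.08, adjusted p = 1.07e-05). FBXL15, of the ubiquitin ligases, fell by 0.34 (SE 0.10, adjusted p = 0.0086), and USP2, a deubiquitinating enzyme, by 0.36 (SE 0.10, adjusted p = 0.00428).

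The drugs gave no call in this wider list at either time: 0 of 24 tested with OSMI-2 at 2 h, 0 of 25 with OSMI-2 at 6 h, and 0 of 26 with TMG at each time, by edgeR, when 0%, 4.94%, 7.91% and 6.03% of all genes were called. In a fit without DMSO 6 h library a of the OSMI-2 experiment, an alternative added after the values had been seen, 10 of 25 (40%) were called higher with OSMI-2 at 6 h, near the 34.2% of all genes. With all libraries and without adjustment, p was under 0.05 for 0 and 3 genes of the list with OSMI-2 at 2 h and 6 h. With TMG at 2 h and 6 h there were 4 and 5. The shares of all genes at that unadjusted level are not given beside these counts, which are a description only. NPAS2 was at 8.86 ± 0.98 CPM (SD, n = 2) with OSMI-2 at 6 h and 4.78 ± 0.52 CPM (SD, n = 3) in DMSO, with a log2 fold change of 0.69 (SE 0.36, adjusted p = 0.229), and 0.68 (SE 0.14, adjusted p = 0.0102) without library a. In DMSO of the OSMI-2 experiment 1 of 24, CSNK2B, fell by 0.79 (SE 0.28, adjusted p = 0.044) between the times, when 14% of all genes were called lower. Without library a, 1 was called higher and 6 lower (25%, against 29% of all genes). The contrast of both drugs at 6 h had 5 of 27 called, all higher for OSMI-2: NPAS2, BHLHE40, BHLHE41, CSNK2B and FBXL15, with a median of 0.51 over the list and 0.36 over all genes. These are 18.5% of the list, against 16.9% of all genes, and without library a 23 of 27 (85.2%) were called higher, against 73%.

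The 3 clock genes with the widest range of group means were NR1D2, CLOCK and NR1D1, at 3.75, 3.08 and 2.02 on the log2 scale. Among 9419 other genes with a mean of at least 5 CPM, those whose log2(CPM + 0.5) followed NR1D2 most closely over the 23 libraries were CAB39, LARP4 and IREB2, with Pearson's r of 0.998, 0.997 and 0.997. For CLOCK they were RIOK3 with 0.998, RIF1 with 0.997 and LTN1 with 0.997, and for NR1D1 they were ABHD4 with 0.987, CNPPD1 with 0.976 and SESN2 with 0.976. The transcripts of the 6 genes nearest to NR1D2 and CLOCK have 37.0% to 43.1% GC, and those nearest to NR1D1 53.8% to 59.5%. These coefficients describe libraries that fall into 2 experiments of different GC slope, a split that the 23 points share.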

How the data were processed

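Gene expression was measured by RNA-seq of polyadenylated RNA. Reads were aligned with STAR to hg19, per the submitters' processing notes; the counting program is not given in the sources used here. The authors deposited whole-number counts per bin, with an adjusted p-value and a log2 change of bin usage per bin. Bins other than detained introns were summed to 1 value per gene. Counts were tested with edgeR 4.0.16 (quasi-likelihood, filterByExpr, trimmed-mean (TMM) scaling over genes and introns together) within the libraries of each comparison, in R 4.3.3, with Benjamini-Hochberg adjustment over all genes or introns and a threshold of 0.05. An intron relative to its gene was tested as log2((intron + 1)/(gene + 1)) with limma 3.58.1, where the intron averaged 10 counts or more. DESeq2 1.42.0 was an alternative. SE is the log2 fold change divided by the square root of the F statistic. CPM values were scaled over all 23 libraries. GC content was available for 12732 of 13236 gene groups (96.2%), as a median over GENCODE transcripts. Any 2 libraries of a group differed by more than sampling noise (chi-square per degree of freedom 4.33 to 304). By this measure TMG 6 h library b stood apart from libraries a and c of its group, at 70.1 and 63.4. Libraries a and c were at 4.86 from each other. The scripts were tested on simulated data. A bin that lies under overlapping genes cannot be assigned to 1 of them, and PER1 is therefore reported with RP11-599B13.6; they share 1 first-exon bin and 1 further bin is of the other gene alone. In bulk RNA, fewer expressing cells and less RNA per cell cannot be told apart. The text names all 10 clock genes in every comparison of 1 group with another, and some of them in the tests of a difference of changes. It also names their detained introns, genes of the wider list that passed the test (except some that are not reported) with 6 fixed ones, and the 3 genes most like each of the 3 most variable clock genes. The clock genes, the wider list and the tests were chosen with earlier results of these data known. Alternatives were median-of-ratios scaling, scaling on genes or introns alone, no low-count filter, DESeq2, a joint fit of all libraries, gene sums with introns or without the last exon, removal of each library's GC trend, PER1 without shared bins, and leaving out each library. Some genes of the wider list and of the marker lists are counted but not reported here by name.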

Additional observations from a re-analysis of the deposited data

Results flagged for a closer look

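The following differences were picked out because the change of a gene differed between the experiments by a test of the difference itself. At 6 h the effect of OSMI-2 minus the effect of TMG was 1.08 for PER1, 0.83 for PER2 and 1.23 for NR1D1 on the log2 scale. Between 2 h and 6 h in DMSO, the change of NR1D1 in the TMG experiment minus that in the OSMI-2 experiment was 1.23. All 4 share the DMSO 6 h libraries of both experiments, and with scaling on genes alone none of them passed the threshold. No group had enough libraries for a test of single outlying libraries.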

How the results depend on the processing

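No paired analysis was possible because the count columns carry letters that no label ties to the replicate numbers, so nothing says which libraries would pair. Of 1998 values of single clock genes or their intron under an alternative setting, 1852 kept their direction or their uncalled state and side of the threshold, 66 were no longer past it, 75 newly passed it, and 5 changed sign while called in one of the 2 fits. Of the first, 150 changed sign while called in neither fit. The 5 reversals were CLOCK without DMSO 6 h library a of the OSMI-2 experiment, at 0.52 for OSMI-2 at 6 h, 0.92 for the OSMI-2 effect minus the TMG effect at 6 h and 0.73 for the difference of DMSO changes, and the CRY2 intron between the times in DMSO of that experiment, at -0.69 scaled on introns alone and -0.71 by DESeq2. Leaving out each library in turn gave CLOCK values of -0.21 to 0.52, -0.25 to 0.92 and -0.22 to 0.73 in those 3 contrasts. The cause was not tested.

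Counts of clock genes called moved as follows, each with the share of all genes called in the same fit. Median-of-ratios scaling gave 1 (7.56%) for OSMI-2 at 6 h, 0 (5.68%) for TMG at 6 h, 1 (24.2%) between times in DMSO of the OSMI-2 experiment, 5 (43.2%) for OSMI-2 minus TMG at 6 h and 3 (19.3%) for the difference of DMSO changes. Scaling on genes alone gave 1 (6.21%) for TMG at 2 h, 0 (5.74%) for TMG at 6 h, 0 (8.25%) for OSMI-2 minus TMG at 6 h and 0 (7.79%) for the difference of DMSO changes. DESeq2 gave 2 (9.87%) for TMG at 2 h and 2 (17%) for the difference of DMSO changes. The joint fit of all 23 libraries gave 5 (47%) for OSMI-2 at 6 h, 0 (0.0157%) for TMG at 6 h, 2 (48.2%) and 2 (14.4%) between times in DMSO of the OSMI-2 and TMG experiments, 2 (19.4%) for the OSMI-2 effect at 6 h minus 2 h, 5 (31.8%) for OSMI-2 minus TMG at 6 h and 4 (28.7%) for the difference of DMSO changes. Removing the GC trend, an alternative chosen after seeing the data as were the sums without the last exon and PER1 without shared bins, gave 4 (28%), 2 (44.2%), 2 (15.4%), 6 (44%) and 7 (42%) for OSMI-2 at 6 h, times in DMSO of the OSMI-2 experiment, the OSMI-2 effect at 6 h minus 2 h, OSMI-2 minus TMG at 6 h and the difference of DMSO changes. For the intron of CRY2, scaling on introns alone and DESeq2 each gave 0 calls for OSMI-2 at 6 h and between times in DMSO of both experiments.

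Leaving out each library in turn gave 0 to 7 clock genes called for OSMI-2 at 6 h, 0 to 1 for TMG at 2 h, 0 to 0 for TMG at 6 h, 0 to 1 and 4 to 7 between times in DMSO of the OSMI-2 and TMG experiments, 0 to 1 for the OSMI-2 effect at 6 h minus 2 h, 0 to 8 for OSMI-2 minus TMG at 6 h and 0 to 8 for the difference of DMSO changes. The 7 and both counts of 8 came without DMSO 6 h library a of the OSMI-2 experiment. In those fits 42.4%, 75% and 56.4% of all genes were called. The shares of all genes behind the 4 to 7 are not given here, so that range cannot be read as particular to clock genes. For the intron of CRY2 the number of calls between times in DMSO was 0 to 1 in each experiment. Relative to CRY2 it was 0 to 1 in the OSMI-2 experiment. Where this left 1 OSMI-2 library at 6 h, that library was assumed to vary like the others. With 2 or 3 libraries a group and intron counts of 5 to 41, small changes were not detectable.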
